A study of Mus musculus with 8 samples.

Results

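Serotonin receptor genes were followed in RNA-seq profiles of the mouse nucleus accumbens, the reward-related region at the base of the striatum. The members were the 10 genes Htr1a, Htr1b, Htr1d, Htr1f, Htr2a, Htr2c, Htr3a, Htr4, Htr6 and Htr7, chosen by their symbols from a table of 22337 genes, and all 10 were found. The animals were male C57BL/6 mice that received either saline or morphine, the opioid agonist of the mu receptor. There were 4 libraries per group, and the series asks what chronic morphine exposure does to the transcriptome of this region. The sources used here give no dose, schedule, age or time of dissection. No label ties a library to a separate animal, so p-values measure library-to-library spread that may be technical.

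Serotonin reaches the accumbens in fibres of raphe neurons, whose cell bodies lie in the brainstem, and acts there through receptors of several families. The Htr1 receptors couple to Gi/o proteins and lower cyclic AMP, the Htr2 receptors couple to Gq and release calcium from internal stores, Htr4, Htr6 and Htr7 couple to Gs and raise cyclic AMP, and Htr3a encodes a subunit of a cation channel that serotonin opens. In the striatum Htr1b is known from the axon terminals of medium spiny neurons, the projection cells of the region, and Htr4 and Htr6 are also known from these cells. Htr2a is best known from cortical pyramidal neurons and Htr3a from a class of cortical interneurons. Htr2c is found in many neurons and is very abundant in the choroid plexus, the tissue that secretes cerebrospinal fluid.

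The measure was FPKM, fragments scaled by transcript length and by library size, so levels can be set side by side between genes. Between 12287 and 12655 genes per library reached an FPKM of 1. Low values of genes with a single annotated transcript fell on steps worth 1 fragment, which placed the fragment totals behind the scaling between 12300000 and 19320000 per library. Saline replicate 3 stood apart from the other saline libraries. Its summed FPKM of 24 striatal medium spiny neuron markers was 6952, against 1475 to 1772 in saline replicates 1, 2 and 4 and 563.0 to 691.5 in the morphine group, and its summed FPKM of 16 cortical glutamatergic markers was 187.2, against 497.7 to 578.0 and 576.9 to 690.2. Ppp1r1b, whose product relays dopamine signals in striatal neurons, was present in every library (64.6 to 1455 FPKM), and so was the cortical glutamate transporter gene Slc17a7 (19.6 to 139.5 FPKM). The mitochondrially encoded genes took 9.09 to 12.6% of the FPKM sum in saline and 6.09 to 7.94% in morphine. In whole tissue, fewer cells of a type and less RNA per cell cannot be told apart.

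Htr4 and Htr7, both Gs-coupled receptor genes, fell with morphine, and no receptor gene rose past the threshold. Htr7 entered the test only through its saline libraries, since no morphine library reached 1 FPKM, and without a filter on low values neither gene passed (limma adjusted p = 0.0582 for Htr4 and 0.075 for Htr7). The comparison used log2(FPKM + 1), limma and Benjamini-Hochberg adjustment over the 12536 genes that reached 1 FPKM in 4 or more libraries, with a call at an adjusted p under 0.05. Of the 10 receptor genes 9 passed the filter, 2 were lower and 7 were not called. Across all genes tested 2.52% were called in either direction, 1.48% lower and 1.04% higher. Without saline replicate 3, 2.36% of all genes were called, and of the receptor genes Htr4 alone. At an unadjusted p under 0.05 there were 5 receptor genes, Htr4, Htr7, Htr1b and Htr6 with negative and Htr3a with a positive change, where 20.1% of all genes tested had such a p. Among the 9 tested receptor genes 4 changes were positive and 5 negative, with a median log2 change of −0.16, where the median over all genes tested was 0.01. Groups that did not overlap were seen in Htr1b, Htr4 and Htr7, where every morphine library lay below every saline library, and in Htr3a, where every morphine library lay above. Over all genes tested 12.7% had groups that did not overlap, 6.1% with morphine lower and 6.56% with morphine higher.

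**Figure D1:**
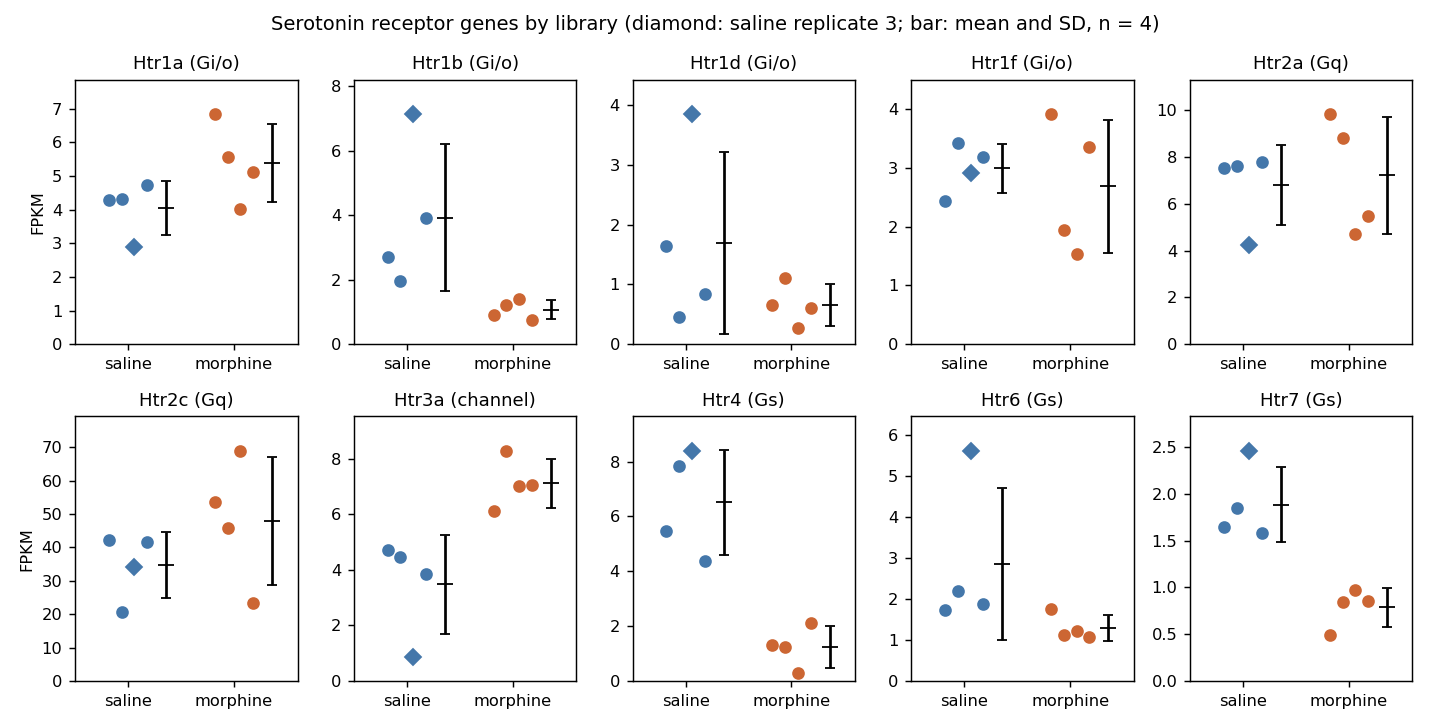
FPKM of the 10 serotonin receptor genes (vertical axes, each from 0) in the 4 saline and 4 morphine libraries, with the mean and SD of each group as a bar beside the points and saline replicate 3 as a diamond. Htr4, Htr1b and Htr7 were lower in every morphine library than in any saline library and Htr3a was higher, while the diamond is the highest saline point of 5 genes and the lowest of 3.

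The start regions of 4 receptor genes are shown because these genes differ in how their levels lay in the 2 groups. Htr1b and Htr7 had lower morphine values without overlap, Htr6 had a single high saline library, and Htr2c had the highest level of the family. RefSeq start regions (GRCm38.p6, the assembly that mm10 names) were used for 8 of the 10 receptor genes. Those of Htr3a and Htr4 were not searched. Each line gives the bases before the transcription start, 5′ to 3′ on the gene's own strand, leaving out any base inside the GENCODE gene, with GC boxes in capitals.
Htr1b, chr9:81633833-81634082, minus strand: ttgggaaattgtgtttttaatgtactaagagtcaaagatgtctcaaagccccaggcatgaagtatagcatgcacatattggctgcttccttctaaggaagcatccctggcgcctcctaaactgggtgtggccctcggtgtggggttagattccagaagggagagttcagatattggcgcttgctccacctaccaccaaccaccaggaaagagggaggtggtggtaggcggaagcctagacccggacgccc
Htr7, chr19:36057508-36057610, minus strand: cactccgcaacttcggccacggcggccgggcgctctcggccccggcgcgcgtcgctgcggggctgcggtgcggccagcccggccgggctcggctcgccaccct
Htr6, chr4:139075571-139075820, minus strand: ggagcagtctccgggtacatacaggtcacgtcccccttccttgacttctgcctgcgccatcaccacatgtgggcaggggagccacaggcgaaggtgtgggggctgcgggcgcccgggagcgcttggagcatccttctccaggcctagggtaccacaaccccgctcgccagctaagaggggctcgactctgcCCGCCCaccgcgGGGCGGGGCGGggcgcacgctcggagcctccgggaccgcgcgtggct
Htr2c, chrX:146962263-146962512, plus strand: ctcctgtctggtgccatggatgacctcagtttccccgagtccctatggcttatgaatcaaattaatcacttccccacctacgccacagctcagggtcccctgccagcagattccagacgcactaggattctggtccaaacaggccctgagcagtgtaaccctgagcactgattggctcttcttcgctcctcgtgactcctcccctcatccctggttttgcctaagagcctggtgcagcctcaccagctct
Motifs were searched on both strands in the 250 bases before each RefSeq start, overlapping matches included. The GC box GGGCGG was found in 4 of the 8 receptor genes, Htr1a, Htr1d, Htr2a and Htr6, and in 32.7% of 32851 windows of that length over the genome's genes. Htr1d and Htr6 have 2 RefSeq starts each and counted with a match before either, while the genome's share is by window. Of the other motifs, TGACG, the core of the cyclic AMP response element and part of the full element, was found in Htr7 alone, outside the bases printed, and in 17.8% of all windows. The full element TGACGTCA, the AP-1 site TGACTCA, the Nr4a site AAAGGTCA, the clock E-box CACGTG and the TATA box TATAAA were in none of the 8, and in 1.55, 4.46, 1.34, 6.02 and 12.4% of all windows. A match is a run of letters and not a measured binding site.

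Htr4 had the largest change of the family. The gene (ENSMUSG00000026322, chromosome 18, 62324204 to 62496577, plus strand, GRCm38) encodes a Gs-coupled receptor. Its FPKM was 5.46, 7.85, 8.39 and 4.37 in saline replicates 1 to 4 and 1.32, 1.25, 0.28 and 2.13 in morphine replicates 1 to 4. The lowest saline library therefore lay above the highest morphine library, and saline replicate 3, although the highest, lay close to replicate 2. The mean went from 6.52 ± 1.92 to 1.25 ± 0.757 FPKM (SD, n = 4 each), a 5.23-fold lower mean, and the log2 change was −1.78 ± 0.27 (SE; limma adjusted p = 0.0207). Without saline replicate 3 the log2 change was −1.66 (limma adjusted p = 0.0201). With saline replicate 2, or replicate 3 or 4 of the morphine group, left out limma called no gene of the table, and Htr4 had log2 changes of −1.69, −1.53 and −1.96 (adjusted p = 0.0686, 0.0653 and 0.0621). The lowest morphine value corresponds to between 5 and 18 fragments, depending on which of the 4 annotated transcripts, 1203 to 4661 bases long, is assumed.

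Htr7 fell at levels close to 1 FPKM. The gene (ENSMUSG00000024798, chromosome 19, 35958734 to 36057507, minus strand) encodes a Gs-coupled receptor known in limbic circuits and in the control of circadian phase. It measured 1.65, 1.85, 2.46 and 1.58 FPKM in saline replicates 1 to 4 and 0.49, 0.84, 0.97 and 0.86 in morphine replicates 1 to 4. All saline libraries were above 1 FPKM and all morphine libraries below it, so Htr7 passed the filter on low values only through the saline group. The means were 1.89 ± 0.400 and 0.790 ± 0.208 FPKM (SD, n = 4 each), 2.39-fold lower with morphine, with a log2 change of −0.69 ± 0.15 (SE; limma adjusted p = 0.0471). The adjusted p sat at the threshold, and the call was lost with a pseudocount of 0.1 (0.0529) and under quantile normalization (0.0828). Leaving out saline replicate 1, 2 or 3 or any single morphine library ended the call, with adjusted p between 0.0753 and 0.120 and log2 changes between −0.74 and −0.60.

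Htr6, the remaining Gs-coupled member (ENSMUSG00000028747, chromosome 4, 139061108 to 139075570, minus strand), owed its saline mean to a single library. Saline replicates 1, 2 and 4 had 1.73, 2.19 and 1.87 FPKM and saline replicate 3 had 5.62. The morphine libraries had 1.75, 1.13, 1.23 and 1.07 FPKM, and replicate 1 lay within the saline range. The log2 change of Htr6 was −0.65 ± 0.26 (SE; limma adjusted p = 0.201), and −0.36 without saline replicate 3 (limma adjusted p = 0.266).

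Among the Gi/o-coupled members Htr1b had the lower values with morphine and the others overlapped. Htr1b (ENSMUSG00000049511, chromosome 9, 81628291 to 81633828, minus strand) encodes the receptor that curbs transmitter release from terminals. It had 2.69, 1.97, 7.13 and 3.91 FPKM in saline replicates 1 to 4 and 0.90, 1.23, 1.39 and 0.74 in morphine replicates 1 to 4. The lowest saline value was above the highest morphine value, and saline replicate 3 was far above the rest. The means were 3.93 ± 2.28 and 1.07 ± 0.298 FPKM (SD, n = 4 each), and the log2 change was −1.16 ± 0.28 (SE), just outside the threshold (limma adjusted p = 0.056). With a pseudocount of 0.1 or 0.5 in place of 1 Htr1b passed (log2 change −1.66 and −1.39, limma adjusted p = 0.048 and 0.0498). Without saline replicate 3 the log2 change was −0.88 (limma adjusted p = 0.052). Exons of Htr1b overlap those of the antisense gene D430036J16Rik, and the labels' protocols do not mark strand, so reads of the pair cannot be told apart.

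Htr1d, the closest relative of Htr1b in function, was the one gene of these 10 under the filter. It had 1.65, 0.45, 3.85 and 0.84 FPKM in saline and 0.65, 1.11, 0.27 and 0.60 in morphine replicates 1 to 4 (ENSMUSG00000070687, chromosome 4, 136423524 to 136444398, plus strand). The groups overlapped and saline replicate 3 was again the highest. With a filter of 0.1 FPKM in at least 4 libraries its log2 change was −0.57 ± 0.32 (SE; limma adjusted p = 0.367).

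Htr1a and Htr1f did not pass. Htr1a, the autoreceptor of raphe neurons and a postsynaptic receptor elsewhere (ENSMUSG00000021721, chromosome 13, 105443639 to 105448122, plus strand), had 4.29, 4.33, 2.89 and 4.73 FPKM in saline and 6.84, 5.57, 4.02 and 5.13 in morphine replicates 1 to 4. Saline replicate 3 was the lowest of all 8 libraries, and 3 of the 4 morphine libraries lay above every saline library. The log2 change of Htr1a was 0.33 ± 0.18 (SE; limma adjusted p = 0.319). Htr1f (ENSMUSG00000050783, chromosome 16, 64924729 to 65105854, minus strand) had 2.44 to 3.42 FPKM in saline. Its morphine values formed a low pair, 1.95 and 1.53 in replicates 2 and 3, and a high pair, 3.91 and 3.36 in replicates 1 and 4, on both sides of the saline mean of 2.99 ± 0.420 (SD, n = 4). The log2 change of Htr1f was −0.16 ± 0.21 (SE; limma adjusted p = 0.723), and 0.0043 without morphine replicate 3. Both genes have a single annotated transcript, and their values rested on 189 to 593 fragments per library for Htr1a and on 55 to 195 for Htr1f. Counting error alone, with each fragment taken as a separate molecule, gives a coefficient of variation of up to 7.27% for Htr1a and 13.5% for Htr1f, by library. PCR copies were not marked, so the true error may be larger.

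**Figure D2:**
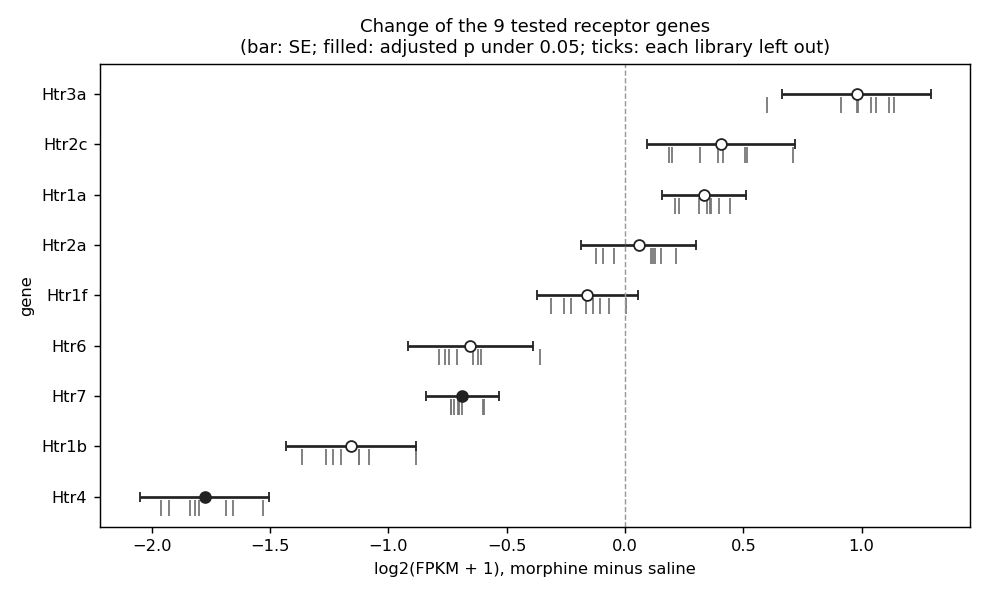
Difference in log2(FPKM + 1), morphine minus saline (horizontal axis), for the 9 receptor genes tested, with the SE as a bar, genes past an adjusted p of 0.05 as filled points, and the estimates with each library left out as ticks. Htr4 and Htr7 are filled, Htr1b lies further from 0 than Htr7 but has a wider bar, and the ticks of Htr2a and Htr1f fall on both sides of 0.

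The Gq-coupled pair showed no change that passed. Htr2c (ENSMUSG00000041380, chromosome X, 146962513 to 147197277, plus strand), known for restraining dopamine neurons and for RNA editing of its transcript, had 42.3, 20.8, 34.1 and 41.6 FPKM in saline and 53.7, 46.0, 68.9 and 23.2 in morphine replicates 1 to 4. The lowest library of each group, saline replicate 2 and morphine replicate 4, had similar values, and 3 of the 4 morphine libraries lay above every saline library. The means were 34.7 ± 9.99 and 47.9 ± 19.0 FPKM (SD, n = 4 each; log2 change 0.41 ± 0.31 SE, limma adjusted p = 0.51). Without morphine replicate 4 the log2 change was 0.71 (limma adjusted p = 0.188). The choroid plexus gene Ttr had 29.0 and 26.4 FPKM in saline replicates 3 and 4, 0.94 to 1.27 in saline replicates 1 and 2 and 0.06 to 12.65 in morphine, with 2.00 in morphine replicate 3, the library with the most Htr2c. Folr1, another defining choroid plexus gene, was between 0 and 0.22 FPKM in all libraries. The 16 choroid plexus and ependymal markers summed to 14.7 to 67.9 FPKM in saline and 10.0 to 24.1 in morphine, 6 of them were at 0 in at least 1 library, and their part in the level of Htr2c was not tested.

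Htr2a (ENSMUSG00000034997, chromosome 14, 74640840 to 74709494, plus strand), the receptor through which classical hallucinogens act, was nearly level in 3 saline libraries at 7.53, 7.63 and 7.79 FPKM and had 4.23 in saline replicate 3. In morphine it had 9.84 and 8.84 FPKM in replicates 1 and 2 and 4.72 and 5.50 in replicates 3 and 4. The morphine libraries thus lay on both sides of the 3 level saline libraries, and the log2 change was 0.06 ± 0.24 (SE; limma adjusted p = 0.923). Its sign turned when saline replicate 3, or replicate 1 or 2 of the morphine group, was left out (−0.12, −0.09 and −0.05). These values rest on 347 to 1066 fragments per library. If each is a separate molecule, counting error gives a coefficient of variation of up to 5.37%, by library.

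Htr3a, the channel subunit (ENSMUSG00000032269, chromosome 9, 48899213 to 48911099, minus strand), had higher values with morphine that missed the threshold. It had 4.73, 4.46, 0.87 and 3.86 FPKM in saline and 6.13, 8.29, 7.02 and 7.07 in morphine replicates 1 to 4. The groups did not overlap, and saline replicate 3 was far below all other libraries. The means were 3.48 ± 1.78 and 7.13 ± 0.887 FPKM (SD, n = 4 each), 2.05-fold higher with morphine, with a log2 change of 0.98 ± 0.31 (SE; limma adjusted p = 0.121). Without saline replicate 3 the log2 change was smaller, 0.60, and its SE fell to 0.14 (limma adjusted p = 0.0576). Vip, a peptide gene of Htr3a-type interneurons, had 5.98 FPKM in saline replicate 3, 34.7 to 56.7 in saline replicates 1, 2 and 4 and 49.1 to 62.2 in morphine. Reln, another gene of that list, had 3.63 FPKM in saline replicate 3 and 1.38 to 2.55 in saline replicates 1, 2 and 4, with 1.02 to 3.52 in morphine. Of the 15 markers of Htr3a-type and other interneurons 11 had positive and 4 negative changes (median 0.56). They summed to 566.4 FPKM in saline replicate 3, 1592 to 2266 in saline replicates 1, 2 and 4 and 2160 to 3214 in morphine, and the peptide gene Cck alone made up 111.8, 650.3 to 932.2 and 887.0 to 1476 of these sums. None of the 15 was at 0 in any library or called by limma, and their part in the level of Htr3a was not tested. Htr3b, which encodes the partner subunit and lies beside Htr3a on chromosome 9, was at 0 FPKM in 6 libraries and reached 0.06 in saline replicate 3, or 2 fragments.

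Summed by signalling route, the Gs-coupled genes made up a smaller part of the family in every morphine library than in any saline library. Htr4, Htr6 and Htr7 together had 8.84, 11.9, 16.5 and 7.82 FPKM in saline and 3.56, 3.22, 2.48 and 4.06 in morphine replicates 1 to 4. Their share of the summed FPKM of the 10 genes was 16.7 ± 6.36% for saline and 4.83 ± 2.33% for morphine (SD over 4 libraries), and the shares did not overlap. Htr4 alone had 4.37 to 8.39 FPKM of the Gs sums in saline and 0.28 to 2.13 in morphine, while Htr6 overlapped between the groups. The shares also move with Htr2c, which had 20.8 to 42.3 FPKM in saline and 23.2 to 68.9 in morphine. Htr3a made up 1.20 to 8.12% in saline and 7.17 to 14.2% in morphine. The Gi/o-coupled genes made up 14.9 to 23.2% in saline and 7.98 to 19.8% in morphine, and the Gq-coupled genes 51.7 to 67.0% and 57.8 to 81.5%. The total over the 10 genes overlapped between the groups, at 54.9 to 74.5 FPKM in saline and 49.7 to 90.3 in morphine, with Htr2c above every other member in each library. These sums describe the chosen genes and were not tested.

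**Figure D3:**
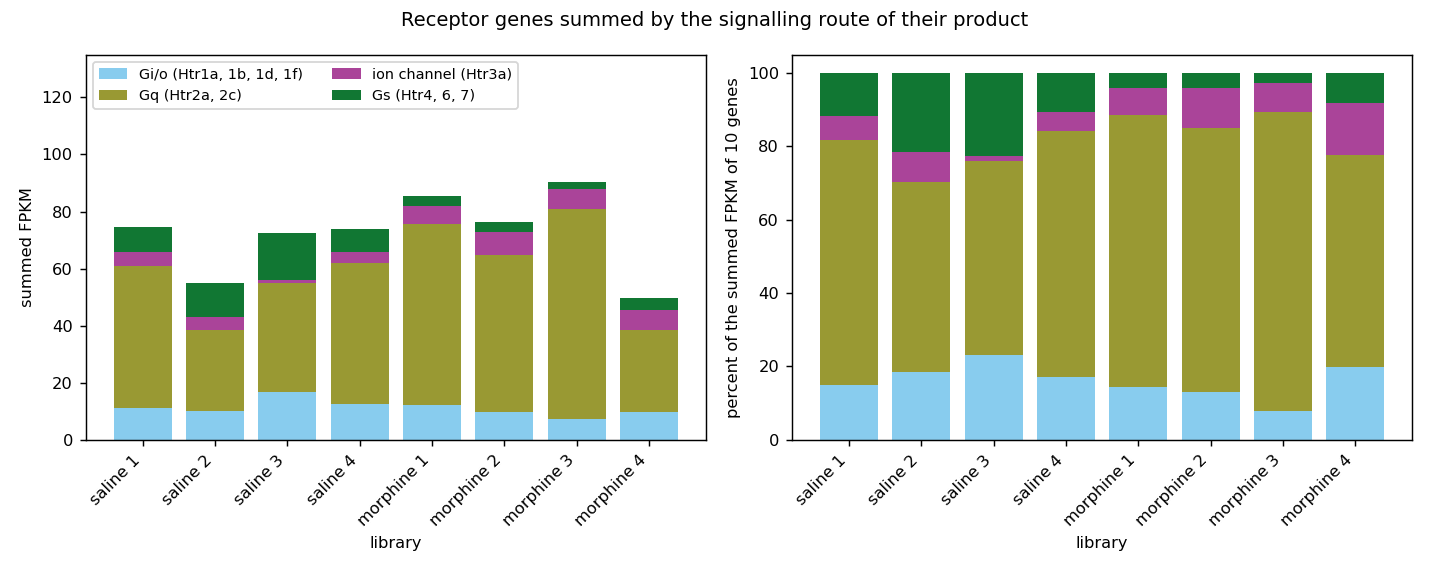
Summed FPKM (left) and share of the sum in percent (right) of the 10 receptor genes in each library, stacked by the signalling route of the product. The Gs segment is 10.6 to 22.7% of the sum in the saline libraries and 2.74 to 8.17% in the morphine libraries, and the Gq segment, mostly Htr2c, is the largest in every library.

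In order of level, Htr2c led the family in both groups, with ranges apart from the next gene, Htr2a. In saline the order then ran Htr2a, Htr4, Htr1a, Htr1b, Htr3a, Htr1f, Htr6, Htr7 and Htr1d by mean FPKM (6.80 down to 1.70). Of these neighbours only Htr6 stood above the next gene, Htr7, in all 4 saline libraries, and no pair of neighbours after Htr2c had ranges apart. In morphine the order ran Htr2a, Htr3a, Htr1a, Htr1f, Htr6, Htr4, Htr1b, Htr7 and Htr1d (7.22 down to 0.657). Htr1a lay above Htr1f with ranges apart, Htr1f above Htr6 in all 4 libraries, and the other neighbours changed places between libraries. Htr4 thus moved from the third to the seventh place. The ratio of Htr3a to Htr4 was 0.104 to 0.883 in saline and 3.32 to 25.1 in morphine, by library. That these ranges lie apart follows from the groups of both genes not overlapping, in opposite directions. The lowest ratio was that of saline replicate 3, with Htr3a at 0.87 FPKM. The highest was that of morphine replicate 3, with Htr4 at 0.28 FPKM.

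Saline replicate 3 was the highest saline library for Htr1b, Htr1d, Htr4, Htr6 and Htr7 and the lowest for Htr1a, Htr2a and Htr3a, and lay between the others for Htr1f and Htr2c. The mean log2(FPKM + 1) of the 24 striatal markers was 6.85 in that library, 4.63 to 4.97 in saline replicates 1, 2 and 4 and 3.23 to 3.64 in morphine, and that of the 16 cortical markers was 2.52, 3.82 to 3.92 and 4.04 to 4.20. None of these markers was at 0 in any library. Of the 23 striatal markers tested 11 fell and none rose (median log2 change −2.14), among them the D1 dopamine receptor gene Drd1 (−2.80 ± 0.45 SE). Among all genes tested 1.48% were called lower and 1.04% higher. Of the 15 cortical markers tested 13 had positive and 2 negative changes (median log2 change 0.495). Past the threshold 1 rose, the transcription factor gene Neurod1 (1.14 ± 0.26 SE). In saline replicates 1, 2 and 4 Htr4 had 4.37 to 7.85 FPKM, Htr1b 1.97 to 3.91 and Htr7 1.58 to 1.85. The striatal marker means were lower in every morphine library than in these. The part of the striatal and cortical markers in the receptor changes was not tested.

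**Figure D4:**
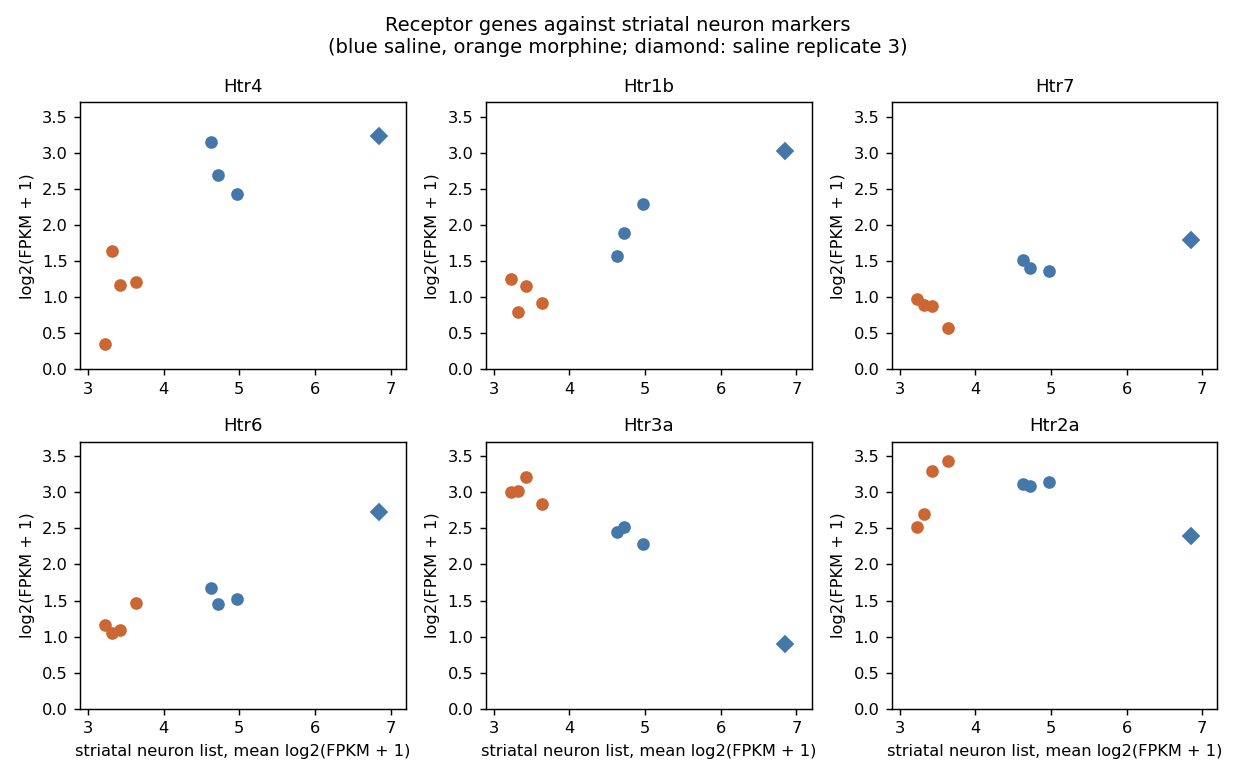
Level of 6 receptor genes (vertical axes, log2(FPKM + 1)) against the mean log2(FPKM + 1) of 24 striatal medium spiny neuron markers (horizontal axis) in each library. Morphine libraries lie between 3.23 and 3.64 on the horizontal axis, 3 saline libraries between 4.63 and 4.97, and saline replicate 3 at 6.85. In that library Htr4, Htr1b, Htr7 and Htr6 are highest and Htr3a and Htr2a lowest.

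Markers of other cell types were called too, in lists with fewer tested genes than the 23 striatal ones. Among all genes tested 2.52% were called. All 4 tested markers of cholinergic interneurons, which release acetylcholine, had negative changes (median −1.56), and Chat and Slc10a4 fell (−1.65 ± 0.35 and −2.11 ± 0.48, log2, SE). Chat passed the filter only through the saline group, at 1.65 to 8.56 FPKM against 0.10 to 0.38 in morphine. Slc10a4 had 2.87 to 21.6 FPKM in saline and 0.21 to 1.78 in morphine. The 7 tested septal and hypothalamic markers had 3 positive and 4 negative changes (median −0.31). Of these the neuropeptide gene Nts and the protease gene Ecel1 fell past the threshold (−1.99 ± 0.24 and −2.14 ± 0.46). The 10 tested claustrum, piriform and amygdala markers had 7 positive and 3 negative changes (median 0.53). Of these 3 rose past the threshold, with Nr4a2 at 1.76 ± 0.32 and Etv1 at 1.06 ± 0.21. All 5 tested choroid plexus and ependymal markers had negative changes. Of these 1 fell past the threshold, the chloride channel gene Clic6 (−1.38 ± 0.23), and Kcnj13 had −1.61 ± 0.43 (limma adjusted p = 0.0741). Clic6 too passed the filter only through the saline group, at 1.25 to 4.27 FPKM against 0.17 to 0.26 in morphine. In astrocytes 4 of 15 and in endothelium 4 of 12 fell, among them Ntsr2 (−0.83 ± 0.11), Slc4a4 (−1.28 ± 0.25), Ly6c1 (−0.76 ± 0.10) and Ly6a (−0.99 ± 0.16). With 1 positive change in each of these 2 lists, 14 astrocyte and 11 endothelial markers had negative ones. None of 13 oligodendrocyte and 11 microglial markers was called (medians −0.37 and −0.10). All 13 oligodendrocyte markers had negative changes, and the microglial ones had 3 positive and 8 negative.

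Genes that make, move and break down serotonin did not pass. Of 15 listed, 8 were tested and 0 called by limma, with 7 negative changes and a median log2 change of −0.27. The smallest p belonged to Maoa, the enzyme that oxidises serotonin, with a mean of 10.0 ± 0.592 FPKM with saline and 7.94 ± 1.17 with morphine (SD, 4 libraries each). Its log2 change was −0.31 ± 0.13 (SE; limma adjusted p = 0.208, unadjusted p = 0.0341). The raphe neuron genes, which have their cell bodies elsewhere, were at or near 0: Fev at 0 in every library, the serotonin transporter gene Slc6a4 at 0 to 0.14 FPKM and the brain tryptophan hydroxylase gene Tph2 at 0.03 to 0.53. The vesicular transporter gene Slc18a2, which dopamine and serotonin neurons share, had a saline mean of 2.25 ± 0.510 FPKM and a morphine mean of 2.09 ± 0.418 (SD, n = 4 each).

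Signal transduction genes downstream of the receptors were called in the Gi/o list and not in the Gs list. Of 8 Gi/o genes 2 rose: Kcnj9, a subunit of the potassium channels that Gi/o receptors open, from 18.5 ± 3.33 to 33.1 ± 5.12 FPKM (adjusted p = 0.0319), and the G protein gene Gnaz, from 14.4 ± 0.734 to 20.9 ± 2.21 (SD, n = 4 each; adjusted p = 0.0449). None of the 14 Gs genes was called (9 positive, 5 negative, median 0.13), and the smallest p belonged to the cyclase gene Adcy8 (0.65 ± 0.17, log2, SE; adjusted p = 0.0758). Among all genes tested 2.52% were called, and whether the Gs and Gi/o lists differ was not tested. None of 16 partner, editing and promoter regulator genes was called, with the smallest p for the caveolin gene Cav1 (−0.48 ± 0.12, log2, SE; adjusted p = 0.0687). The further receptor genes Htr5a and Htr5b were higher on average with morphine and did not pass (0.40 ± 0.17 and 0.68 ± 0.24, log2, SE; adjusted p = 0.238 and 0.155). Htr2b stayed under the filter at 0.24 to 1.02 FPKM.

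By the highest Pearson r of log2(FPKM + 1) over the 8 libraries, among 12188 other genes, Htr7 was most like the clock gene Nr1d2 (r = 0.995) and the transcription factor gene Rfx4 (0.979). Htr4 was most like Retsat (0.984) and Tgfb2 (0.983), Htr1b most like Srgap1 (0.977) and Sparc (0.977), and Htr6 most like Car11 (0.984) and Isyna1 (0.982). Htr3a was most like Ube2ql1 (0.991) and Ccn3 (0.988), which is on the claustrum, piriform and amygdala list. Htr1a was most like Ift81 (0.978) and Eif5b (0.974), Htr1f most like Syt7 (0.963) and Manea (0.938), Htr2a most like Mkx (0.959) and Tmem178 (0.946), and Htr2c most like Calhm5 (0.921) and Zfp13 (0.917). The 2 highest of so many values over 8 libraries that share the difference between the groups are a description, and no other receptor gene was among them.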

How the data were processed

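RNA-seq of 8 nucleus accumbens libraries, 4 saline and 4 morphine, was analysed. Per the labels' protocols, RNA was taken with Trizol and copied from an oligo-dT primer with template switching and PCR, with no molecular identifiers or strand marking named. The authors deposited 1 table of FPKM rounded to 2 decimals, 1 column per library per the file headers. The submitters' processing notes list HISAT2, RSEM, StringTie 1.3.1, Bowtie2 2.2.8 and fastp 0.18.0 and the build mm10. What each tool did, which annotation was used and whether strand was counted is not stated there. Since FPKM are relative, abundant genes that rise lower the values of all others.

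GENCODE M21 (GRCm38) gave symbols and coordinates for 22283 of 22337 genes. No stretch of 30 bases was shared between the annotated transcripts of any of 45 pairs of the receptor genes. Fragment totals were estimated from genes of 300 to 1500 bases with 1 annotated transcript: at the best total, 77.5 to 84.2% of low values per library were whole fragments within 0.15, where evenly spread values give 30%. They cover counting error only and were not used for tests. Genes that reached 1 FPKM in 4 or more libraries were fitted as log2(FPKM + 1) with limma 3.58.1 in R 4.3.3 (trend, two-sided, Benjamini-Hochberg), without a block; the fit was tested on simulated data. Fold changes on this scale understate those of low genes. Same-numbered libraries deviated from their group means with correlations of −0.20 to 0.05, so the numbers were not taken as pairs. Between 0.611 and 1.37% of non-zero values were identical between any 2 libraries. Alternatives were other pseudocounts, filters, scalings and variance models, a replicate block and each library left out.

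The members and lists were chosen with earlier results of these data known. Named are all receptor genes; called members of a pathway list or its smallest p; the 2 smallest p of each marker list plus 5 defining markers; and the 2 genes most alike. Some genes under that rule are not reported here or are given only as counts, and Htr2b, Htr3b, Htr5a, Vip, Reln, Cck, Fev, Slc6a4, Tph2 and Slc18a2 are named beyond it, chosen after their values were seen.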

Additional observations from a re-analysis of the deposited data

Results flagged for a closer look

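Both values come from saline replicate 3. Htr2a had 4.23 FPKM in that library, far below the other saline libraries at 7.53 to 7.79 and with a gap to the nearest of them of 0.927 of the group's range, above Dixon's 95% critical value for 4 samples. Htr6 had 5.62 FPKM there, far above the other saline libraries at 1.73 to 2.19 (0.882 of the range). Of the 20 groups of 4 examined, 2 were marked, where chance marks about 1 in 20.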

How the results depend on the processing

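The calls depended on single libraries, the filter and, for Htr7, the pseudocount and the scaling. With all libraries limma called 2 receptor genes and 316 genes in all. A filter of 0.1 FPKM in at least 4 libraries kept both (limma adjusted p = 0.0238 for Htr4 and 0.0466 for Htr7), with 232 of 15386 genes called. Without a filter on low values, 0 of 10 receptor genes and 17 of 19607 genes were called (5 and 3204 at an unadjusted p under 0.05). With the replicate number as a block 0 and 5 were called (5 and 2352 unadjusted). With a filter of 5 FPKM, 3 receptor genes were left and 0 called (1 unadjusted), where 216 of 8937 genes were called (1767 unadjusted). Quantile normalization called 1 receptor gene, Htr4 (Htr7 limma adjusted p = 0.0828), and 240 genes in all. With a pseudocount of 0.1 Htr1b was called in place of Htr7 (limma adjusted p = 0.048 and 0.0529), and 305 genes in all. With each library left out in turn the number of receptor genes called lay between 0 and 2 and that of all genes between 0 and 450: 0 without saline replicate 2 or replicate 3 or 4 of the morphine group (2005, 1953 and 2136 unadjusted), 75 without saline replicate 1, 102 and 70 without morphine replicates 1 and 2, 296 without saline replicate 3 and 450 without saline replicate 4. Under the block Htr4 and Htr7 had adjusted p = 0.0642 and 0.0929. Of the calls 41.1% were higher, and 26.7% once mitochondrially encoded genes were removed and the rest rescaled. With each library left out, the log2 change of Htr2a lay between −0.12 and 0.21 and that of Htr1f between −0.31 and 0.0043, so their sign is not settled. The other 7 tested receptor genes kept their sign under every alternative run. Depth limits Htr1b, Htr1d, Htr4 and Htr7 in morphine, where the lowest library may hold 13, 1, 5 and 15 fragments if the shortest transcript is assumed. The cause of these shifts was not tested.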
